A study of Mus musculus with 6 samples.

Results

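The secreted Wnt antagonists are extracellular proteins that keep Wnt ligands from signaling through their receptors. The 10 genes described here (Dkk1, Dkk2, Dkk3, Dkk4, Sfrp1, Sfrp2, Sfrp4, Sfrp5, Frzb and Wif1) were taken by gene symbol from a table of 56941 genes, and all 10 were present and passed the filter on low counts, as did 32149 genes in all. Total RNA was sequenced from FACS sorted hair follicle stem cells (HFSCs, CD34+/α6-integrin+) of dorsal skin from female mice at postnatal day (PD) 68, in 3 libraries labelled WT and 3 labelled Dab2-cKO, all called biological replicates. By the labels, the epidermis was separated from the dermis before sorting. By the study's methods, the WT mice were K14CreER-/- Dab2 fl/fl and the Dab2-cKO mice K14CreER+/- Dab2 fl/fl, on a strain given as B6;129S4-Dab2tm1Cpr/J. Both genotypes thus carried the floxed Dab2 alleles and both received tamoxifen, at 75 mg/kg per day for 5 days. The K14 promoter drives the tamoxifen-activated Cre in basal keratinocytes and their follicular relatives, and not in dermal, endothelial or immune cells. Dab2 encodes an endocytic adaptor protein, and the comparison asks how its loss alters Wnt signaling in HFSCs. By the study's histology, both genotypes were in the second telogen, the resting phase of the hair cycle, at this age. The stage of the follicles in these libraries was not tested here.

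The canonical Wnt pathway starts when a Wnt ligand joins a Frizzled receptor with the coreceptor Lrp5 or Lrp6, after which β-catenin accumulates and acts with TCF/LEF factors in the nucleus. The Dickkopf proteins Dkk1, Dkk2 and Dkk4 bind the coreceptors, while Dkk3 is the divergent member of that family and is not known to bind them. The secreted Frizzled-related proteins Sfrp1, Sfrp2, Sfrp4, Sfrp5 and Frzb (also called Sfrp3) carry a domain like that of the Frizzled receptors and bind Wnt ligands directly, as does Wif1 through a domain of its own. In the hair follicle, Sfrp1, Dkk3 and Wif1 are known from the quiescent bulge, whereas Dkk2, Sfrp2, Sfrp4 and Frzb are known from dermal and other mesenchymal cells. Dkk4 is known from the placodes of developing follicles, and Dkk1 is the classical inhibitor of follicle formation.

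The promoters of Wif1, Sfrp1, Dkk2 and Sfrp5, members whose RNA differed between the genotypes, are shown first, with that of Dkk4 added because its window holds the most TCF/LEF core letters. Each is read 5′ to 3′ from GRCm39 and ends 1 base before the start of the Ensembl canonical transcript in the GENCODE annotation. The windows span 250 bases, or 218 for Dkk2, where bases in an exon of a longer transcript were left out. Capitals mark CTTTGA or CTTTGT, the core letters bound by TCF/LEF factors, on either strand.
Wif1, chr10:120869615-120869864, plus strand: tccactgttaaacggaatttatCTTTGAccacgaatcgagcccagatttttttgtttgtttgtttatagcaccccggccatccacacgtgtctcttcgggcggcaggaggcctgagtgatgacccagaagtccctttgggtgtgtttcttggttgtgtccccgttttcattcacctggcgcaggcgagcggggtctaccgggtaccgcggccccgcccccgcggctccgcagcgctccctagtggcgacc
Sfrp1, chr8:23901013-23901262, plus strand: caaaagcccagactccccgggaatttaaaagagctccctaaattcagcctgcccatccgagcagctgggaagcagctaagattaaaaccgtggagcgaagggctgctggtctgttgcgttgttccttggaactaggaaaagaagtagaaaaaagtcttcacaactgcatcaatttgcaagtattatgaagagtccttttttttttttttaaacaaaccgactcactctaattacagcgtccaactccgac
Dkk2, chr3:131790825-131791042, plus strand: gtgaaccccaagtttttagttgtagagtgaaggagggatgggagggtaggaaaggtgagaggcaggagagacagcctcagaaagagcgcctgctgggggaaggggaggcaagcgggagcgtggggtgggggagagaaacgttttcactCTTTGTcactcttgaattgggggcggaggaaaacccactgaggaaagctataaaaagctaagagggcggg
Sfrp5, chr19:42190692-42190941, minus strand: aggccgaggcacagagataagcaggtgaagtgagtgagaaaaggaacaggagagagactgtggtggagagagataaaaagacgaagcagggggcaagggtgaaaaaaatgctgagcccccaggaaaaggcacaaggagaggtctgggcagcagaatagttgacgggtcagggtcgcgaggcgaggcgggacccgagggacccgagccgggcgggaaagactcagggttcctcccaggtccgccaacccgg
Dkk4, chr8:23113809-23114058, plus strand: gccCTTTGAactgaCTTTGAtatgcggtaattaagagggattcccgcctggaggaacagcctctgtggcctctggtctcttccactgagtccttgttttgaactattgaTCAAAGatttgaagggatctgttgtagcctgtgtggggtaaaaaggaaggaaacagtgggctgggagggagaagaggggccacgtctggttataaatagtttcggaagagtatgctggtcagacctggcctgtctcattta
The core was present in 3 of the 10 windows of 250 bases, in which Dkk4 held 3 copies of CTTTGA, Wif1 held 1 copy of CTTTGA and Dkk2 held 1 copy of CTTTGT. A window can hold both cores, and on opposite strands they can share a base. Of all 21757 protein-coding promoters of the same length, 27.2% held at least 1 of the 2 cores, with 14.1% for CTTTGA and 15.9% for CTTTGT. The letters TATAAA on either strand were present in Dkk1, Dkk2, Dkk4 and Wif1, and in 11.9% of all promoters. The median GC content of the windows was 53.8% for the members and 53.2% for all promoters. Among the members, GC content ranged from 44.0% for Sfrp1 to 68.8% for Sfrp2.

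The total counts were 7040032 to 9518564 in the libraries labelled WT and 9374373 to 11696457 in those labelled Dab2-cKO. The make-up of the libraries moved with the labels, with 13.0% to 14.4% of counts on mitochondrial genes in WT and 19.1% to 20.3% in Dab2-cKO, 15.3% to 17.0% and 22.3% to 24.2% on rRNA genes, and 33.1% to 33.9% and 44.5% to 46.6% on the 100 most abundant genes. Their part in the differences below was not tested. Values below are normalized counts (counts adjusted for TMM-corrected depth and brought to the average depth of the 6 libraries), given for replicates 1, 2 and 3 in that order. The targeted gene Dab2 was at 338, 332 and 309 in the WT-labelled libraries and at 1434, 1300.3 and 1390 in the Dab2-cKO-labelled ones. It was therefore higher in the libraries labelled for its loss (2.08 ± 0.08 on the log2 scale, fitted value and standard error, with an adjusted p of 3.37e-34 by edgeR). Counts per gene cannot tell an intact transcript from one with a deleted exon. The count table names the second group FL-FL, which was read as Dab2-cKO from the series title, so every direction below rests on that reading and refers to the libraries as labelled. The sorting markers were present in all 6 libraries, with 510.4 ± 53.1 and 1780 ± 35.6 normalized counts of Cd34 and 959.5 ± 41.4 and 1409 ± 47.8 of Itga6, in WT and Dab2-cKO (SD, n = 3 each). The bulge keratin Krt15 had 3555 ± 233 and 6351 ± 111 (SD, n = 3 each). These 3 genes belong to a list of 14 outer bulge markers, of which 8 rose and 3 fell. Those that fell were Sox9 (966 ± 52.3 and 355 ± 12.7), Lhx2 (348 ± 49.4 and 129 ± 7.36) and Lgr5 (414 ± 14.7 and 167 ± 23.4, SD, n = 3 each). Transcripts of cells outside the gate were present as well. All 16 dermal fibroblast markers were detected, 15 rose and 1 (Dpp4) fell, and their summed normalized counts went from 108743 to 131484 in WT up to 370338 to 390214 in Dab2-cKO. All 19 measured markers of the hair shaft, matrix and inner root sheath fell, from summed counts of 249367 to 298937 to counts of 3526 to 3546. Among them, Tchh was at 162261 ± 15992 and 1517 ± 13.5 in WT and Dab2-cKO (SD, n = 3 each). The proliferation marker Mki67, which is not in that list, was at 6162 ± 346 and 1413 ± 55.4 (SD, n = 3 each). Whether both genotypes were sampled at the same stage of the hair cycle was not tested, so the differences below are not those of a known shared stage. In such bulk samples, fewer cells of a type and less RNA per cell cannot be told apart.

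Of the 10 antagonists, Dkk2, Sfrp4, Sfrp5 and Frzb rose in the libraries labelled Dab2-cKO, Wif1 and Sfrp1 fell, and Dkk1, Dkk3, Dkk4 and Sfrp2 did not pass the test. The largest rise was that of Dkk2, by 2.84-fold, and the largest fall that of Wif1, to 0.414 of its WT level. In all, 6 members passed edgeR's quasi-likelihood test at an adjusted p under 0.05, where 28.2% of all genes tested passed. Separately by direction, 4 members rose beside 16.8% of all genes, and 2 fell beside 11.4%. The normalized counts of the 2 genotypes did not overlap in the same 6 members, as was the case for 38.3% of all genes. The median log2 fold change of the members was 0.18, and that of all genes tested was -0.02.

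**Figure D1:**
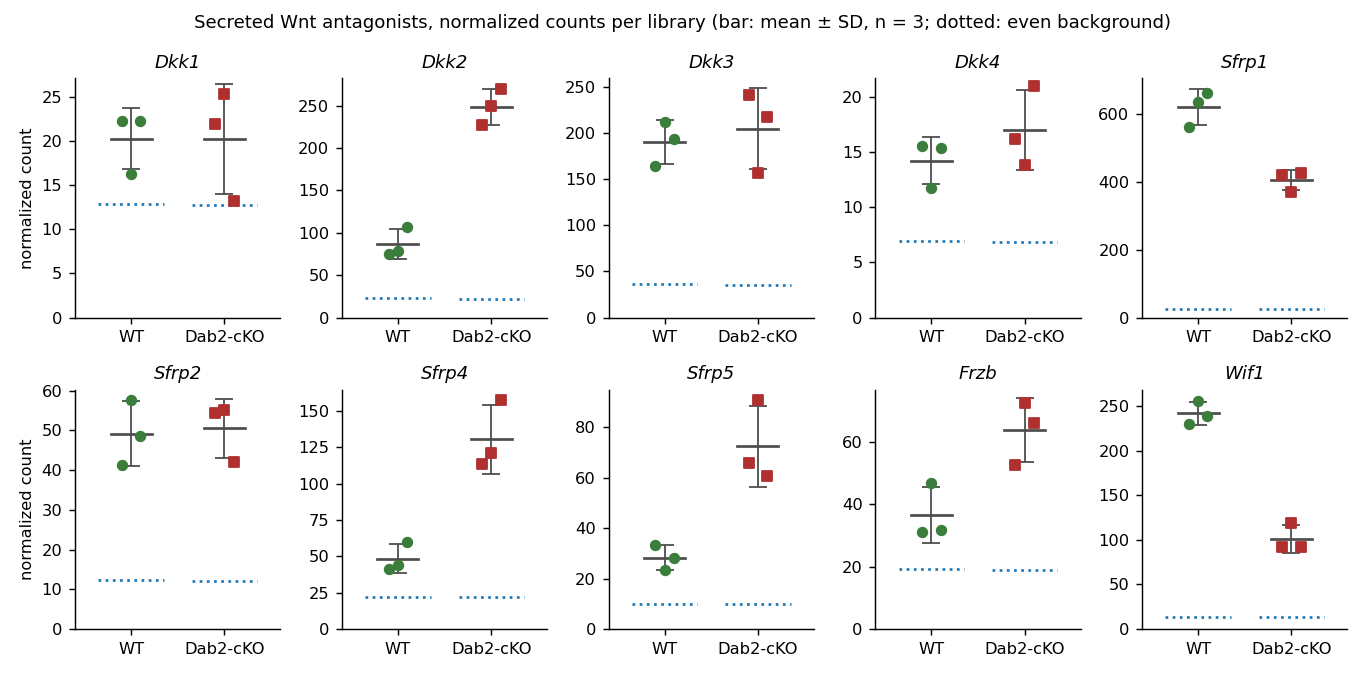
Normalized count of each antagonist (y axis, linear from 0) in the 3 libraries labelled WT (green circles) and the 3 labelled Dab2-cKO (red squares), with mean ± SD and, as a dotted line, the count that an even background would give. The genotypes are apart in Dkk2, Sfrp4, Sfrp5, Frzb, Sfrp1 and Wif1 and overlap in Dkk1, Dkk3, Dkk4 and Sfrp2.

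Among the Dickkopf proteins that bind the coreceptors, Dkk2 (ENSMUSG00000028031, chromosome 3, 131790336 to 131886065) was at 74.6, 78.5 and 107 normalized counts in WT and at 227, 249.7 and 269 in Dab2-cKO. Every library labelled Dab2-cKO was far above every WT library. The means were 86.6 ± 17.6 and 249 ± 21.2 (SD, n = 3 each), a log2 fold change of 1.51 (standard error 0.14, 95% interval 1.22 to 1.79, edgeR's adjusted p = 2.33e-14). Dkk2 is the member of the family known both to inhibit and, in some settings, to activate the pathway.

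Dkk1 (ENSMUSG00000024868, chromosome 19, 30523263 to 30527065) had 22.3, 16.2 and 22.2 normalized counts in WT and 21.9, 25.3 and 13.2 in Dab2-cKO. The libraries of the 2 genotypes overlapped throughout. At this depth no difference was detectable (a log2 fold change of -0.0019, 95% interval -0.78 to 0.78, edgeR's adjusted p = 0.998). Dkk4 (ENSMUSG00000031535, chromosome 8, 23114059 to 23117563) was the member with the fewest counts, at 15.6, 11.7 and 15.4 in WT and 16.2, 13.8 and 21.0 in Dab2-cKO. Its libraries overlapped too, and its log2 fold change of 0.26 had an interval from -0.62 to 1.13 (edgeR's adjusted p = 0.748), which includes the change seen in Frzb. The gene Polb, on the opposite strand, covers 2.43% of the exonic sequence of Dkk4.

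Dkk3 (ENSMUSG00000030772, chromosome 7, 111712904 to 111758760) had 165, 212 and 194 normalized counts in WT and 241, 156 and 217 in Dab2-cKO. The lowest and the highest of the 6 values both came from libraries labelled Dab2-cKO. The means of 190.3 ± 23.9 and 205 ± 43.7 (SD, n = 3 each) gave a log2 fold change of 0.11 (95% interval -0.16 to 0.37, edgeR's adjusted p = 0.631). Without a correction for composition, by library size alone, Dkk3 was called in the other direction (-0.31, edgeR's adjusted p = 0.0412), with a median over all genes of -0.45 under that scaling.

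Of the antagonists that bind Wnt ligands, Sfrp1 and Wif1 were the most abundant in WT, and both fell. Sfrp1 (ENSMUSG00000031548, chromosome 8, 23901263 to 23939648) had 561, 635 and 664 normalized counts in WT and 421, 372 and 427 in Dab2-cKO. All 3 Dab2-cKO libraries were below all 3 WT libraries. Its log2 fold change was -0.61 (standard error 0.09, 95% interval -0.79 to -0.43, edgeR's adjusted p = 2.59e-08), and a test against a 1.5-fold change did not pass (adjusted p = 0.764). Wif1 (ENSMUSG00000020218, chromosome 10, 120869865 to 120936555) had 230.5, 256 and 239 normalized counts in WT and 91.6, 119 and 91.6 in Dab2-cKO. The highest Dab2-cKO library was well below the lowest WT library. The log2 fold change was -1.27 (standard error 0.14, 95% interval -1.55 to -0.996, edgeR's adjusted p = 3.37e-12).

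Among the Wnt-binding members that rose, Sfrp4 (ENSMUSG00000021319, chromosome 13, 19807274 to 19817164) had 41.2, 44.2 and 59.8 normalized counts in WT and 113, 121 and 158 in Dab2-cKO. Each Dab2-cKO library exceeded each WT library, with a log2 fold change of 1.415 (standard error 0.19, 95% interval 1.03 to 1.80, edgeR's adjusted p = 4.72e-09). Sfrp5 (ENSMUSG00000018822, chromosome 19, 42186410 to 42190691) was counted at 33.4, 23.5 and 28.2 in WT and at 65.8, 90.9 and 60.7 in Dab2-cKO. Again no library of one genotype reached into the range of the other, with a log2 fold change of 1.36 (standard error 0.26, 95% interval 0.85 to 1.87, edgeR's adjusted p = 1.04e-05). The rises of Dkk2, Sfrp4 and Sfrp5 and the fall of Wif1 were the 4 changes that passed a test against a 1.5-fold change.

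Frzb (ENSMUSG00000027004, chromosome 2, 80242313 to 80278304) had 31.2, 46.9 and 31.6 normalized counts in WT and 52.5, 72.5 and 66.2 in Dab2-cKO. WT replicate 2 and Dab2-cKO replicate 1 were close, although the groups did not overlap. The log2 fold change of 0.79 (standard error 0.25, 95% interval 0.29 to 1.28) had an adjusted p of 0.0106 by edgeR. The call was lost without WT replicate 3 (0.69, adjusted p = 0.066), without Dab2-cKO replicate 2 (0.66, adjusted p = 0.0798), and by library size alone (0.37, adjusted p = 0.238). Sfrp2 (ENSMUSG00000027996, chromosome 3, 83673481 to 83681623) had 41.2, 57.8 and 48.7 normalized counts in WT and 54.4, 55.2 and 41.9 in Dab2-cKO. The libraries overlapped, with a log2 fold change of 0.03 (95% interval -0.45 to 0.52, edgeR's adjusted p = 0.951). This interval does not include the fitted rise of Sfrp4, Sfrp5 or Frzb, but it overlaps the interval of Frzb. The fold changes of these members were not tested against each other. An antisense lncRNA covers 21.0% of the exonic sequence of Sfrp2, and another covers 3.78% of that of Frzb. The strand setting of the counting is not given in the sources used here.

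**Figure D2:**
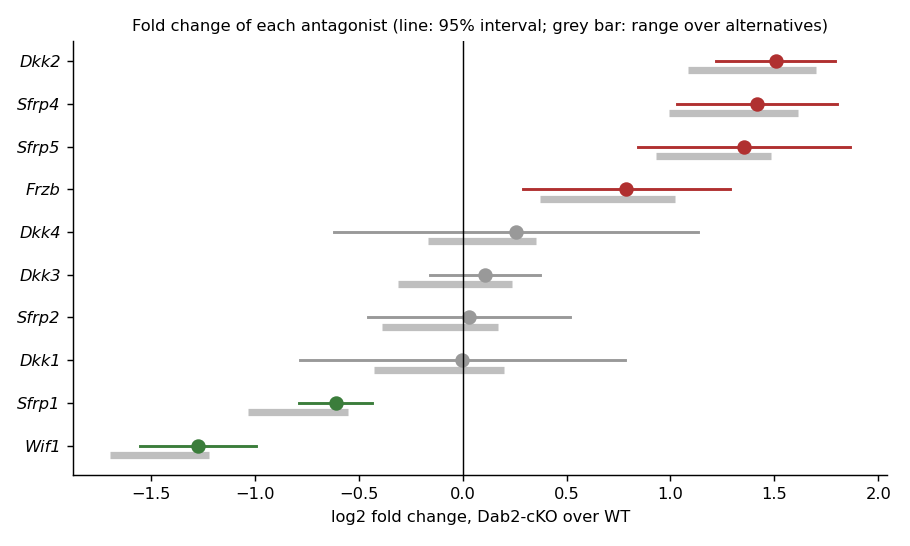
Fitted log2 fold change between the genotypes (x axis, Dab2-cKO over WT) for each antagonist, with its 95% interval as a thin line and the range over the alternative analyses as a grey bar; red and green mark an adjusted p under 0.05 for higher and lower, grey points did not pass. The intervals of Dkk2, Sfrp4, Sfrp5 and Frzb lie above 0, those of Sfrp1 and Wif1 below 0, and the range over alternatives crosses 0 for Dkk1, Dkk3, Dkk4 and Sfrp2.

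Levels were compared between members as normalized counts per kb of exon. In WT, Sfrp1 at 128 ± 11.0 per kb and Wif1 at 96.5 ± 5.24 per kb (SD, n = 3 each) stood above the other 8 members, which lay between 8.34 for Dkk1 and 27.8 for Dkk3. The libraries of Sfrp1 and Wif1 did not overlap. Below them, Dkk3, Sfrp2 and Dkk2 overlapped as neighbours, as did Sfrp5, Sfrp4, Dkk4, Frzb and Dkk1 in that order. In Dab2-cKO, Sfrp1 remained the highest at 84.2 ± 6.28 per kb, and Dkk2 was the second at 58.6 ± 4.99 per kb, above all libraries of Wif1 at 40.1 ± 6.20 (SD, n = 3 each). From Wif1 down to Dkk4, each member overlapped with its neighbour in the order Wif1, Sfrp5, Sfrp4, Dkk3, Sfrp2, Frzb and Dkk4, and Dkk1 was the lowest at 8.31 per kb.

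Chemosensory receptor genes (olfactory, vomeronasal, trace amine) were taken as a background set, and whether these cells use any of them was not tested. They gave a background of 5.30 per kb in WT and 5.23 per kb in Dab2-cKO. The 95th percentile of these 1521 genes was 12.4 per kb in WT and 11.8 in Dab2-cKO. Sfrp4, Dkk4, Frzb and Dkk1 were under it in WT, and Dkk1 alone was under it in Dab2-cKO. In counts, an even background would give 22.2 of the mean 48.4 normalized counts of Sfrp4 in WT and 21.9 of the mean 131 in Dab2-cKO. The corresponding background was 19.1 of 36.6 for Frzb in WT and 18.8 of 63.7 in Dab2-cKO.

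**Figure D3:**
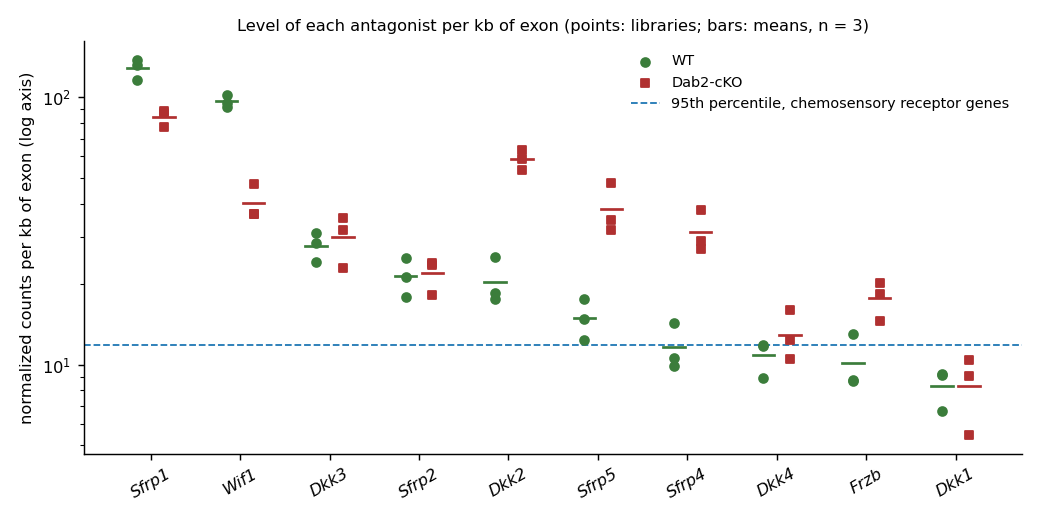
Normalized counts per kb of exon (y axis, log scale) of each antagonist, ordered by the WT mean, in the libraries labelled WT (green circles) and Dab2-cKO (red squares), with means as bars and the 95th percentile of chemosensory receptor genes over all 6 libraries (11.8) as a dashed line. Sfrp1 and Wif1 stand apart from the rest in WT, whereas Dkk2 lies above Wif1 in Dab2-cKO.

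Summed per kb, the 10 antagonists were at 325, 360.1 and 366 in the libraries labelled WT and at 334, 348 and 348 in those labelled Dab2-cKO. The sums overlapped, and the make-up of the sum differed. Wif1 made up 27.6% ± 1.33 of the sum in WT and 11.7% ± 1.67 in Dab2-cKO, and Sfrp1 made up 36.6% ± 0.877 and 24.6% ± 2.12 (SD, n = 3 each). In the opposite direction, Dkk2 made up 5.81% ± 0.930 and 17.1% ± 1.11, Sfrp5 made up 4.30% ± 1.01 and 11.1% ± 2.37, and Sfrp4 made up 3.29% ± 0.533 and 9.10% ± 1.52 (SD, n = 3 each). The coreceptor-binding Dkk1, Dkk2 and Dkk4 summed to 39.6 ± 6.01 per kb and 79.8 ± 5.01 per kb in WT and Dab2-cKO, respectively, without overlap, and Dkk2 alone gave 20.4 and 58.6 of these. The Wnt-binding members together had 283 ± 18.1 and 233 ± 10.9 per kb (SD, n = 3 each), again with no overlap. Such sums have no test of their own here, and 3 against 3 libraries allow an exact 2-sided permutation p no smaller than 0.1.

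Ratios of the raw counts of 2 members within a library do not depend on how the libraries are scaled. The ratio of Dkk2 to Wif1 was 0.324, 0.306 and 0.446 in WT and 2.48, 2.11 and 2.94 in Dab2-cKO, a 7.03-fold change. Wif1 thus had more counts than Dkk2 in every WT library and fewer in every Dab2-cKO library. The ratio of Sfrp4 to Sfrp1 was 0.0734, 0.0696 and 0.0901 in WT and 0.270, 0.325 and 0.3695 in Dab2-cKO, a 4.13-fold change. Over all 45 ratios between members, 30 did not overlap between the genotypes. Each of these 30 includes at least 1 member that was called, so this count largely restates the calls. The share for ratios between other genes was not computed. The 8 ratios between a member that rose and a member that fell changed by 2.68-fold to 7.03-fold, and their lack of overlap was fixed by the choice of such members. Among the 4 members that rose, 1 of the 6 ratios did not overlap, and these changed by 1.07-fold to 1.65-fold. A ratio shows unequal change of its 2 genes and does not show which of them changed.

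The members that rose were set beside markers of dermal fibroblasts, in which Dkk2, Sfrp4 and Frzb are also known. The 15 fibroblast markers that rose brought the summed level of this list to 3.16-fold of WT. The list's median log2 fold change was 1.43, beside 1.51 for Dkk2, 1.415 for Sfrp4, 1.36 for Sfrp5 and 0.79 for Frzb. Sfrp2, also known from mesenchymal cells, was at 0.03. Most of the sum came from the collagen genes Col1a1, Col1a2 and Col3a1. Their means were 135942, 83399 and 132966 of a mean sum of 379949 in Dab2-cKO, so a scale by this sum mainly follows those genes. Per 10000 normalized counts of the fibroblast list, Dkk2 had 7.24 ± 1.49 in WT and 6.54 ± 0.502 in Dab2-cKO, and Sfrp4 had 4.04 ± 0.834 and 3.44 ± 0.624 (SD, n = 3 each). Measured this way, the libraries of the 2 genotypes overlapped for Dkk2 and Sfrp4, and also for Sfrp5 at 2.40 ± 0.645 and 1.90 ± 0.380 (SD, n = 3 each). Frzb was lower on the same scale, at 3.02 ± 0.489 and 1.67 ± 0.2295, and so was Sfrp2, at 4.08 ± 0.303 and 1.33 ± 0.196 (SD, n = 3 each), both with no overlap. Fibroblasts were not particular in this, since per 10000 normalized counts of the endothelial list the genotypes also overlapped for Dkk2 (340 ± 57.7 and 281 ± 26.5), Sfrp4 (189.7 ± 32.5 and 148 ± 28.6) and Sfrp5 (113 ± 27.2 and 81.8 ± 17.6), and did not overlap for Frzb and Sfrp2 (SD, n = 3 each). The part of fibroblast or endothelial RNA in the rise of these members was not tested.

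Markers of other cell types moved with the labels as well, and none of the markers measured was at 0 in all 6 libraries. All 13 endothelial markers rose, with summed normalized counts of 2350 to 2649 in WT and 8736 to 8914 in Dab2-cKO. Of 15 immune markers, 13 rose (2849 to 3127 against 11940 to 12255), as did 10 of 11 mural and smooth muscle markers (4714 to 5450 against 17012 to 17231). All 10 skeletal muscle markers rose (57262 to 66693 against 273398 to 277517), as did 7 of 9 adipocyte markers, of which 1 fell (5329 to 5935 against 12117 to 12539). Of the 16 dermal papilla markers, 2 rose and 7 fell, and their sum was 3709 to 3797 in WT and 2344 to 2436 in Dab2-cKO. In the epithelium, 8 of 14 outer bulge markers rose and 3 fell (11671 to 13347 against 19597 to 19932), all 8 markers of basal interfollicular epidermis rose (14961 to 17048 against 27480 to 28368), and 7 of 10 markers of its differentiated layers rose and 2 fell (15468 to 17839 against 51031 to 51863).

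The fall of Wif1 and Sfrp1 went with that of hair germ, inner bulge, proliferation and melanocyte markers. The outer bulge list went the other way, with 8 of its 14 markers higher and 3 lower. All 9 hair germ markers fell (5517 to 6482 against 1375 to 1392), as did 4 of 7 markers of the inner bulge and companion layer (9584 to 11343 against 2748 to 2854). All 15 proliferation markers fell (13017 to 14164 against 4360 to 4415), as did 7 of 8 melanocyte markers (3663 to 4012 against 1358 to 1392). Per 10000 normalized counts of the outer bulge list, Wif1 had 194 ± 2.90 in WT and 50.8 ± 7.67 in Dab2-cKO, and Sfrp1 had 498 ± 33.1 and 205 ± 16.3 (SD, n = 3 each). Dkk3, the other antagonist known from the bulge, had 152 ± 9.61 and 104 ± 22.1 on the same scale (SD, n = 3 each). In all 3 genes the genotypes did not overlap on this scale. The same was so for Sfrp2, at 39.3 ± 3.99 and 25.5 ± 3.54 (SD, n = 3 each). The summed outer bulge list was itself at 1.59-fold of WT in Dab2-cKO, so a gene with unchanged counts is lower on this scale. The normalized counts of Dkk3 and Sfrp2 did not pass the test, which does not show that they were unchanged. The 95% intervals of their log2 fold changes were -0.16 to 0.37 and -0.45 to 0.52. Dkk2, at 69.6 ± 14.5 and 126 ± 11.8, Sfrp4, at 38.9 ± 8.18 and 66.1 ± 12.7, and Sfrp5, at 23.0 ± 5.52 and 36.6 ± 7.99 (SD, n = 3 each), were higher in Dab2-cKO with no overlap, whereas the libraries of Frzb overlapped. The part of these cell types in the differences was not tested.

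**Figure D4:**
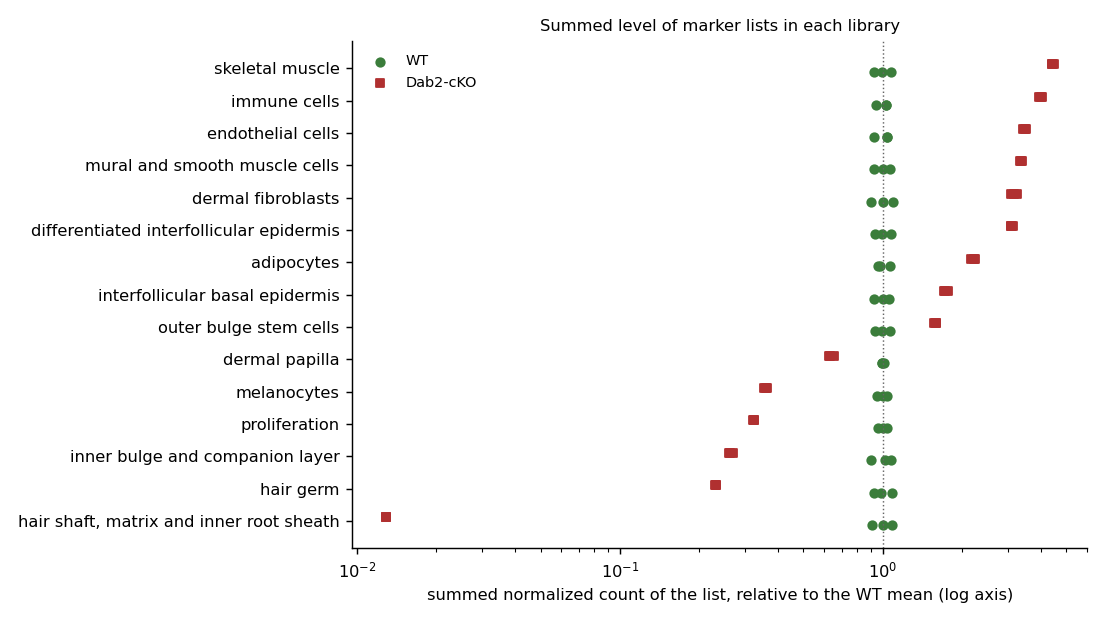
Summed normalized count of each marker list in every library, relative to the mean of the WT libraries (x axis, log scale), for WT (green circles) and Dab2-cKO (red squares). The dermal fibroblast list lies at 3.16-fold and the endothelial list at 3.48-fold of WT in Dab2-cKO, whereas the list of hair shaft, matrix and inner root sheath lies at 0.0129 of WT.

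The antagonists act on Wnt ligands, receptors and coreceptors, whose transcripts were counted in the same libraries. Of all genes tested, 11.4% fell and 16.8% rose, the shares to set beside the counts of each list. Of the 19 Wnt ligands, 4 fell and 1 rose, with a median log2 fold change of -0.23. The rise was that of Wnt7b, a ligand of the follicular epithelium (log2 fold change 1.19, edgeR's adjusted p = 4.72e-10), from 84.5 ± 9.53 to 195 ± 17.7 normalized counts (SD, n = 3 each). The ligands with the largest falls were Wnt10b (-1.94, adjusted p = 3.88e-13) and Wnt11 (-1.94, adjusted p = 1.33e-18). Of the 15 receptors and coreceptors, 7 fell and 1 rose, with a median of -0.13. Fzd4 rose (1.40, adjusted p = 8.09e-24), and Fzd5 (-2.26, adjusted p = 2.38e-25) and Fzd10 (-2.17, adjusted p = 4.64e-24) fell most.

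The partners of the Dickkopf proteins were singled out after their values were seen. Lrp6, a coreceptor, fell by 0.48 on the log2 scale (edgeR's adjusted p = 2.89e-08), and Lrp5 had a log2 fold change of 0.10 (adjusted p = 0.391). Kremen1 and Kremen2, receptors that bind Dickkopf proteins together with Lrp6, had log2 fold changes of -0.26 (adjusted p = 0.011) and -1.002 (adjusted p = 0.00114).

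Among 15 other extracellular and membrane inhibitors of the pathway, 2 rose and 7 fell, with a median of -0.26. Those that rose were Dkkl1, a Dickkopf-like gene (log2 fold change 1.65, edgeR's adjusted p = 8.89e-15), and Igfbp4, which encodes a binding protein for insulin-like growth factors (0.63, adjusted p = 1.02e-11). The largest falls were those of Rnf43 (-1.17, adjusted p = 5.24e-15) and Znrf3 (-1.09, adjusted p = 3.25e-14), a pair of ubiquitin ligases that remove Frizzled receptors from the cell surface. Their counterparts on the agonist side, the R-spondins and LGR receptors, had 2 genes higher and 3 lower of 7, with a median of 0.04. Rspo1 (0.66, adjusted p = 0.00041) and Lgr6 (0.49, adjusted p = 5.94e-05) rose, and, of genes with a mean normalized count of 50 or more, Lgr5 (-1.32, adjusted p = 2.08e-16) and Lgr4 (-1.06, adjusted p = 7.32e-19) fell.

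Of 19 β-catenin target and feedback genes, 13 fell and 1 rose, with a median of -0.86, and this list holds the members Wif1, Dkk1 and Dkk4. It also shares genes with other lists, so the same falls are counted more than once. Notum, Znrf3, Rnf43 and Apcdd1 are also among the other inhibitors. Lgr5 is also in the R-spondin and LGR, outer bulge and hair germ lists, and Lef1 and Edar are also in the hair germ list. Lef1, a TCF/LEF factor (-3.09, edgeR's adjusted p = 2.28e-38), and Nkd2, a feedback inhibitor (-1.40, adjusted p = 2.63e-23), fell most among those with a mean normalized count of 50 or more. The gene that rose was Twist1 (2.06, adjusted p = 2.19e-22), which is also known from dermal mesenchyme. Within this list, Wif1 was thus among the genes that fell, and Dkk1 and Dkk4 were among the 5 that did not pass the test.

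**Figure D5:**
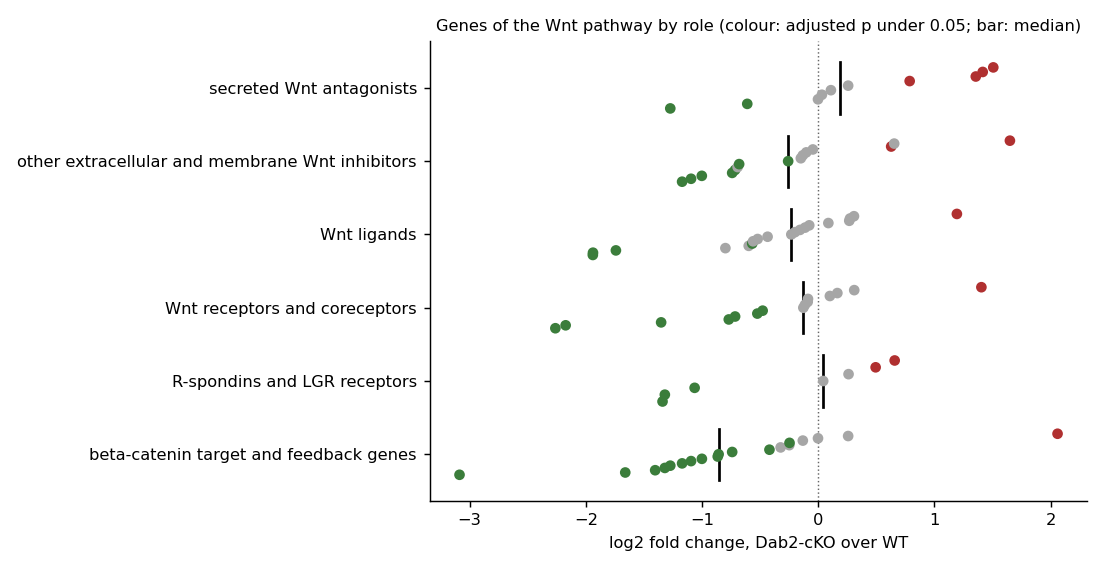
Fitted log2 fold change between the genotypes (x axis, Dab2-cKO over WT) of each gene of the Wnt pathway lists, 1 point per gene, in red where higher and green where lower at an adjusted p under 0.05 and in grey otherwise, with the median of each list as a black bar. The median of the secreted antagonists is 0.18, and that of the β-catenin target and feedback genes is -0.86.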

How the data were processed

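The authors sequenced total RNA of sorted HFSCs (5 ng per library, SMARTer Stranded Total RNA-seq kit v3) and, per the labels, used fastp 0.23.4, HISAT2 2.2.1 on GRCm39 and featureCounts 2.0.6. The deposited counts per gene are not normalized. The strand setting, the treatment of molecular identifiers and the annotation release are not given in the sources used here. A second deposited table holds the authors' own DESeq2 comparison and was not used.

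Counts of all 6 libraries were analysed in R 4.3.3. Genes were filtered by edgeR 4.0.16 with its default expression filter, normalized by TMM and compared with genotype as the only term by the quasi-likelihood test with robust dispersions, 2-sided, with Benjamini-Hochberg adjustment over the 32149 genes tested. An adjusted p under 0.05 counted as a call. Simulated counts served to check the script. Totals were 7040032 to 11696457 counts, so that 3 counts, the limit that a count of 0 allows, are at most 4.26e-05% of a library, for counting error only. All 56941 gene identifiers were looked up in GENCODE vM39 (GRCm39), and 56323 were found. Levels per kb use the union of exons.

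Every member and Dab2 were named. From each Wnt pathway list, up to 2 called genes with the largest rise and up to 2 with the largest fall and a mean normalized count of at least 50 were named. The members and lists were chosen with earlier results of these data known. A marker of the hair shaft list was not analysed here. Alternatives were DESeq2 1.42.0, 3 other scalings, 2 other filters, a replicate block, testing against a 1.5-fold change, and leaving out single libraries. A further promoter sequence is not reported here.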

Additional observations from a re-analysis of the deposited data

How the results depend on the processing

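Of the 10 antagonists, 6 were called by DESeq2, with upper-quartile scaling, with TMM factors computed without mitochondrial and the 100 most abundant genes, and without a low-count filter, each with 4 higher and 2 lower. By library size only, 6 were called with 3 higher and 3 lower, because Dkk3 turned to -0.31 and was called, while Frzb was no longer called. Over all genes the count of calls was 9069 (5389 higher, 3680 lower). It was 13789 by library size only, with 2707 higher and 11082 lower, and 9842 with upper-quartile scaling, with 4281 higher and 5561 lower. The median log2 fold change of all genes was then -0.45 and -0.17. A test against a 1.5-fold change called 3358 genes and 4 members. With a mean count of at least 50, 4 members were called, since Dkk1, Dkk4, Sfrp5 and Frzb were not tested. With each library left out in turn, 5 to 6 members and 7996 to 8546 genes were called. The log2 fold change then stayed between 1.423 and 1.70 for Dkk2, 1.24 and 1.61 for Sfrp4, 1.14 and 1.48 for Sfrp5, 0.66 and 1.02 for Frzb, -1.43 and -1.22 for Wif1, and -0.67 and -0.55 for Sfrp1. The labels number the replicates 1 to 3 in both genotypes, and with a replicate block 6 members and 8957 genes were called. The deviations of same-numbered libraries from their group means correlated at 0.0076 to 0.0231, so the numbers were not taken to pair the samples, although each library correlated best with its own number. The counts of Dkk1 and Dkk4, at 12 to 26 per library, limit what can be said of them.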

Other observations

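For the 3 members with the highest mean level per kb of exon, the genes with the closest pattern over the 6 libraries were found among 10764 genes whose normalized counts averaged 100 or more, by Pearson correlation of log2(normalized count + 1). They were Snx30 (r = 0.999) and Champ1 (r = 0.998) for Sfrp1, Hist1h2bk (r = 0.9995) and Rcc2 (r = 0.999) for Wif1, and Sfxn3 (r = 0.999) and Gatm (r = 0.998) for Dkk2. All 6 libraries enter each value, and the difference between the genotypes makes up most of the variation, so such values describe these libraries only. The log2 fold changes of these genes were -0.54 for Snx30 and Champ1, -2.08 for Hist1h2bk, -1.17 for Rcc2, 0.83 for Sfxn3 and 1.32 for Gatm.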
